A study of Mus musculus with 36 samples.

Results

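The 42 genes described here encode transporters and endocytic receptors of the renal proximal tubule. They were listed by symbol with earlier results of these data known, so the choice was not blind to them. All 42 were found with counts among the 53379 genes of the deposited tables. By textbook position along the tubule, 11 members belong to the early segments (S1 and S2), 14 to the late straight segment (S3), and 17 are used along several segments or were not assigned. By role, 4 members serve endocytosis, 3 move sugar, 6 move phosphate, sulfate or acid equivalents, 5 move carboxylates or ascorbate, 13 move organic anions, urate or drugs, 9 move amino acids, and 2 move water or fatty acids.

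RNA was sequenced from formalin-fixed, paraffin-embedded mouse tissue in 36 libraries of 7 groups. The fusion mice were Sglt2-Cre; ASPSCR1-TFE3 LSL/+, in which Cre removes a stop cassette ahead of the ASPSCR1-TFE3 fusion found in translocation renal cell carcinoma and alveolar soft part sarcoma, and they gave 11 kidney tumor libraries from 6 mice, 4 retro-orbital tumor libraries from 4 of those mice, 3 brain tumor libraries from 3, and 4 libraries of non-transformed kidney from 4. The controls were 3 Sglt2-Cre mice with 6 kidney libraries, so that every adult mouse carried Cre. The fetal kidneys came from 5 Pax8-Cre; ASPSCR1-TFE3 LSL/+ fetuses, whose kidneys were labelled dysmorphic, and from 3 controls whose sample labels give Pax8-Cre, while the series' design text allows either Pax8-Cre or the LSL allele alone for them. Ages are not given in the sources used here. The Sglt2 promoter drives Cre in the early proximal tubule, and its own gene, Slc5a2 (chr7:128265657-128272430, + strand, GRCm38), is a member. Pax8-Cre acts in most renal epithelium during development.

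The proximal tubule takes back most of what the glomerulus filters. Megalin (Lrp2) and cubilin (Cubn) capture filtered proteins at the brush border, with amnionless (Amn) as the membrane anchor of cubilin and the adaptor Dab2 linking megalin to clathrin. Sodium-coupled carriers at the same surface recover glucose, phosphate, amino acids, lactate and ascorbate, while basolateral carriers pass them to the blood or load organic anions for secretion. Several of these genes are known to differ between male and female mouse kidney.

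Libraries of the same mouse and group were summed before testing. Library totals were 80205573 to 121415057 counts. Gpnmb, a known target of the TFE3 fusions, had a level of 1.54 to 2.47 CPM (counts scaled to library size with edgeR's TMM factors) in control kidney, 111 to 446.9 in non-transformed kidney and 2827 to 7325 in kidney tumor, in the order of the labels. By Y-linked transcripts, fusion mice 1 and 5 were male, and fusion mice 2, 3, 4 and 6 and all 3 controls were female. The 2 libraries of a mouse in a group were titled as separate samples, and none was a duplicate of the other (chi-square per degree of freedom of 49.4 to 561 over 19114 to 20701 genes). The adult and fetal tables were deposited separately, so levels set across them are given only as descriptions.

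In control kidney, the summed level of the 42 members was 23396 ± 278 CPM (mean ± SD, n = 3 mice). Divided by exon length, the highest levels were Slc27a2 (a fatty acid transporter of S3) at 545.1 ± 64.5 CPM per kb, Slc7a12 (an S3 amino acid transporter) at 430.1 ± 203, Lrp2 at 385.4 ± 9.15, Slc3a1 (the rBAT subunit of the cystine transporter) at 295.5 ± 27.6 and Slc34a1 (the main renal phosphate cotransporter) at 234.8 ± 46.2. Slc7a12 ranged from 417.5 to 1120 CPM over the 3 mice and overlapped its neighbours in this order. The lowest levels were Slc22a30 at 6.68 ± 0.648 CPM per kb, Slc7a13 at 1.45 ± 0.467 and Slco1a1 at 0.0512 ± 0.0159. The last 3 are late-segment genes with higher levels in the male mice, and all control mice were female.

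**Figure D1:**
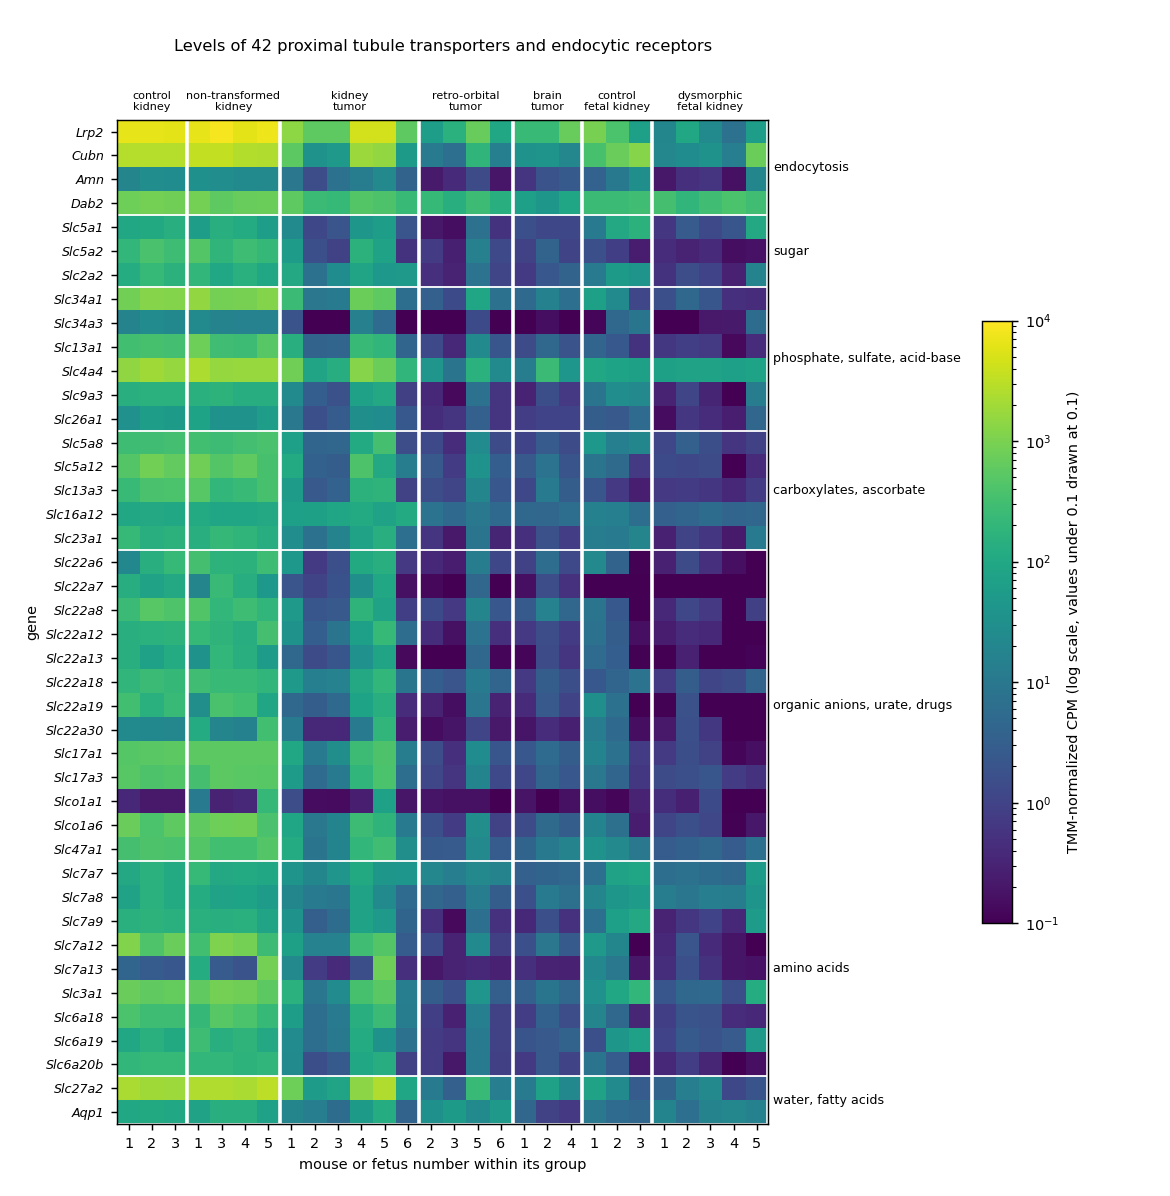
TMM-normalized CPM of each of the 42 members (rows, grouped by role) in each mouse or fetus (columns, numbered within the 7 groups), on a log color scale on which values under 0.1 are drawn at 0.1. Control and non-transformed kidneys are bright for most members, with Slco1a1 and Slc7a13 dark in the female ones, kidney tumors of mice 4 and 5 are closer to them than those of mice 2, 3 and 6, and Slc16a12, with the libraries of a mouse summed, is at 66.1 to 114 CPM in the kidney tumors.

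Compared to control kidneys, 39 of the 42 members had a negative difference in kidney tumors, 2 of them passed the test, and the levels differed widely between mice. Lrp2 had a level of 1421, 569.9, 574.7, 4629, 4635 and 570.2 CPM in the kidney tumors of mice 1 to 6 and of 6562, 6481 and 6266 CPM in the 3 control kidneys. All 6 tumors were below all controls, and mice 4 and 5 stood well above the other tumors. Cubn had 550.5, 36.6, 47.5, 1778, 1519 and 53.3 CPM in the same tumors and 2799, 2753 and 2753 CPM in controls. Slc34a1 had 260.4, 9.55, 11.0, 759.4, 587.3 and 6.47 CPM in tumors and 850.9, 1251 and 1192 CPM in controls. Slc5a2, the glucose cotransporter whose promoter drives Cre here, had 55.6, 1.68, 0.960, 166, 74.7 and 0.539 CPM in tumors and 206.2, 373.2 and 281.1 CPM in controls. For these genes too, mice 2, 3 and 6 were the lowest and mice 4 and 5 the highest.

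In the edgeR quasi-likelihood test of kidney tumor against control kidney, 2 of 42 members fell and 0 rose at an adjusted p under 0.05, while 6.51% of the 23578 genes tested were called lower and 12.5% higher. Dab2, the endocytic adaptor, fell by 1.21 on the log2 scale (SE 0.30, adjusted p = 0.0235), from 825 ± 61.8 CPM (n = 3) to 361 ± 141 CPM (n = 6). Slc7a7, which exports cationic amino acids at the basolateral side, fell by 1.38 (SE 0.42, adjusted p = 0.0482), from 124.7 ± 28.6 to 48.9 ± 30.4 CPM. The most abundant members had larger or similar differences with larger errors. The difference was -1.66 (SE 0.74, adjusted p = 0.136) for Lrp2 and -2.08 (SE 1.15, adjusted p = 0.218) for Cubn. It was -1.67 (SE 0.75, adjusted p = 0.141) for Slc4a4, the basolateral bicarbonate transporter, -2.04 (SE 1.33, adjusted p = 0.291) for Slc34a1 and -1.33 (SE 1.08, adjusted p = 0.398) for Slc27a2.

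The median difference over the members was -1.94 on the log2 scale, against 0.05 over all genes tested. It was -2.04 over the 11 early members, -1.95 over the 14 late ones and -1.78 over the other 17. By role, the median ranged from -1.41 for the 2 water and fatty acid genes and -1.51 for the 4 endocytic genes to -2.32 for the 3 sugar transporters. All 6 tumors were below all 3 controls for 24 of 42 members, among them each of the 3 sugar and 6 phosphate, sulfate and acid-base transporters, against 14.0% of all genes tested. Slc7a13, Slco1a1 and Slc22a30 were the 3 members with a positive difference, none of them called. With sex as a covariate all 42 differences were negative and their median was -2.66, against 0.02 over all genes.

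The call of Slc7a7 ended with sex as a covariate and with no filter on low counts, where Dab2 alone was called. It also ended without any 1 of the 3 controls or of fusion mice 1, 2, 3, 5 and 6. The count called was 0 without control mouse 1, 2 or 3, when 8.55%, 4.78% and 4.96% of all genes were called. It was 6 without fusion mouse 4 (20.9% of all genes), 4 without fusion mouse 5 (25.1%) and 1 without fusion mouse 1, 3 or 6 (13.3 to 19.6%). DESeq2 called 6 of 42 members, which is 14.3%, and 20.8% of all genes.

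The members moved with markers of other nephron segments. As a percentage of the control mean, the median over the members was 21.7% in the kidney tumor of mouse 1, 2.06% in mouse 2, 3.65% in mouse 3, 51.4% in mouse 4, 66.2% in mouse 5 and 2.26% in mouse 6. The corresponding median over 10 markers of the loop, distal tubule and collecting duct, such as Umod and Slc12a1, was 13.9%, 2.14%, 0.780%, 60.4%, 76.2% and 0.334%. Pvalb and Aqp3 were left out of these 10 after their values were seen, because both rose in kidney tumors. The share of kidney tubule retained in each tumor sample was not tested, and in bulk tissue fewer cells of a type and less RNA per cell cannot be told apart.

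**Figure D2:**
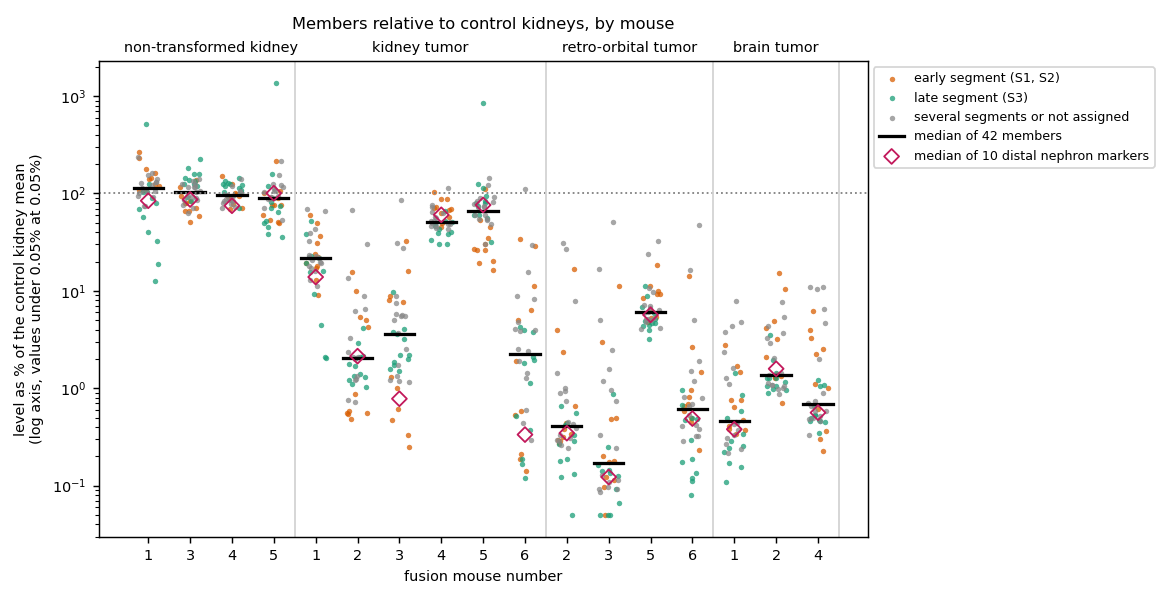
Level of each member as a percentage of the control kidney mean (log axis, values under 0.05% drawn at 0.05%) in each fusion mouse and tissue, colored by tubule segment, with the median of the 42 members (bar) and of 10 distal nephron markers (diamond). Slc7a13 and Slco1a1 are not drawn as points because the female controls were near zero. In kidney tumors the bar runs from 2.06% in mouse 2 to 66.2% in mouse 5, and in mice 1, 3 and 6 it lies above the diamond.

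Segments differed between mice. In mouse 5 the early members had a median of 27.1% of control and the late members 81.5%, whereas in mouse 4 the early members had 69.2% and the late members 44.7%. In mouse 5, the early gene Slc5a12 (a lactate transporter) was at 106.3 CPM against 459.7 to 861.5 CPM in controls, while the late gene Slc5a8 (a lactate transporter with higher affinity) was at 342.7 CPM against 274.3 to 324.2 CPM. Mouse 4 showed the reverse, with Slc5a12 at 409.2 CPM and Slc5a8 at 113.6 CPM. In mice 2, 3 and 6, early members were at a median of 0.870%, 1.30% and 1.91% and late members at 1.72%, 2.72% and 1.88%. Kidneys without tumor also differed. Early and late medians were 74.8% and 126.5%, 125.9% and 85.0%, and 98.0% and 97.1% in control mice 1 to 3. In non-transformed kidneys they were 141.1% and 85.0% in mouse 1 and 79.3% and 129.4% in mouse 3. They were 91.2% and 121.2% in mouse 4 and 76.4% and 72.9% in mouse 5. Mouse 5 was male and all controls were female. The segment difference was not tested.

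The separate tumor samples of a mouse also differed. In mouse 1, the first kidney tumor library had a members' median of 34.8% of control and a distal marker median of 26.4%, and the second had 7.09% and 0.529%. Slc5a2 was at 109.6 CPM in the first and 1.50 CPM in the second, Slc34a1 at 466.3 and 52.6 CPM, and Lrp2 at 2025 and 788.5 CPM. Slc16a12 was at 62.8 and 67.0 CPM in these 2 libraries, but at 107.3 and 35.04 CPM in the 2 of mouse 2 and at 86.8 and 131.5 CPM in those of mouse 4.

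In 6 of the 11 kidney tumor libraries (the second of mouse 1, the first of mouse 2 and both of mice 3 and 6) the 10 distal markers had a median under 1% of control, a limit chosen after the data were seen. Members were far from uniform in these libraries. Of the 42, 8 had a median over 10% of the control mean, 27 had one under 5% and 13 one under 1%. Slc16a12 had the highest, at 102% (68.2 to 125%), followed, leaving out Slco1a1 and Slc7a13 at under 1 CPM, by Dab2 at 34.1% (18.2 to 63.7%), Slc7a7 at 25.7% (15.8 to 46.3%), Slc2a2 (the basolateral glucose exit GLUT2) at 22.1% (4.19 to 71.4%), Amn at 18.7% (9.27 to 46.1%) and Lrp2 at 10.7% (5.73 to 16.2%). In CPM, Lrp2 was at 359.1 to 1015 in these libraries. Its partner Cubn was at 1.81% (1.09 to 6.21%), and the brush border carriers Slc34a1, Slc5a2 and Slc34a3 were at 0.951%, 0.341% and 0.196%. The basolateral organic anion exchangers Slc22a6 and Slc22a8 were at 0.897% and 0.291%. Thus the 4 endocytic genes spanned from 1.81% to 34.1%, and the sugar carriers from 0.341% for Slc5a2 to 22.1% for Slc2a2. These libraries were described and not tested.

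**Figure D3:**
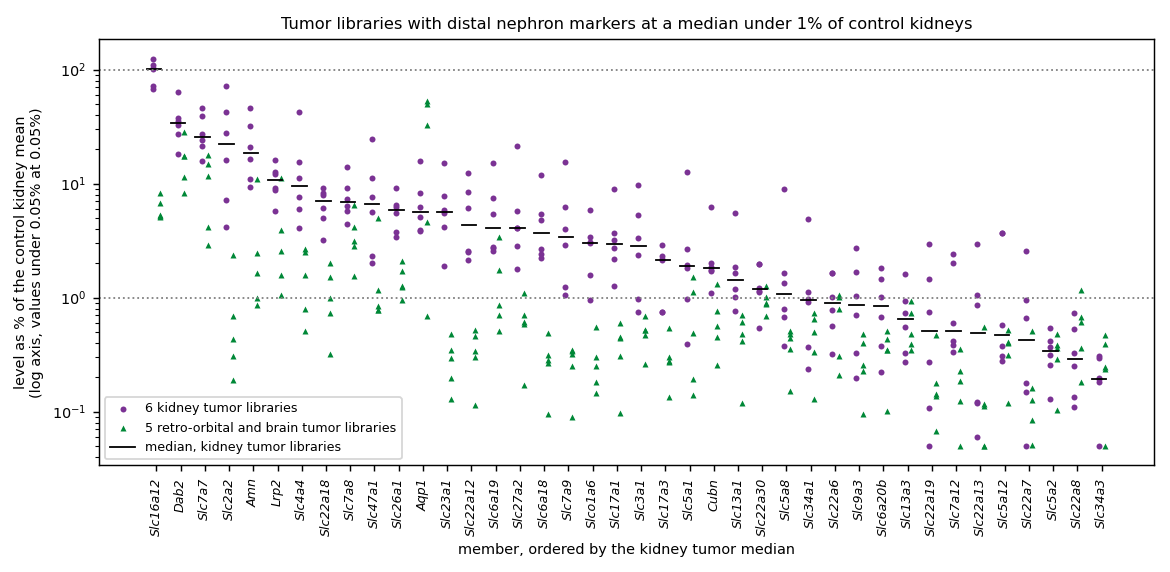
Level of 40 members as a percentage of the control kidney mean (log axis, values under 0.05% drawn at 0.05%) in the tumor libraries whose 10 distal nephron markers had a median under 1% of control, with 6 kidney tumor libraries (circles, bar at their median) and 5 retro-orbital and brain tumor libraries (triangles). Slc16a12 is at 68.2 to 125% in the kidney tumor libraries and 5.09 to 8.36% in those of the other sites. Slco1a1 and Slc7a13 are left out because the female controls were near zero.

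Slc16a12 (chr19:34668403-34747289, - strand, GRCm38) encodes a monocarboxylate transporter family member that carries creatine. Its level in kidney tumors was 66.1, 68.1, 86.5, 114 and 75.4 CPM in mice 1 to 5 and 113.5 CPM in mouse 6, against 97.3, 104.6 and 101.1 CPM in control kidney and 86.8 to 116 CPM in non-transformed kidney. These 3 groups overlapped when the libraries of a mouse were summed. Single kidney tumor libraries ranged from 35.04 CPM, the second of mouse 2, to 131.5 CPM, against 87.4 to 109.6 CPM in control libraries. Outside the kidney its level was 8.01, 5.05, 9.83 and 5.10 CPM in the retro-orbital tumors of mice 2, 3, 5 and 6 and 4.89, 4.42 and 6.52 CPM in the brain tumors of mice 1, 2 and 4, all below every kidney tumor. It was singled out after its values were seen.

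The sequences before the start of Slc16a12, whose kidney tumor levels summed per mouse overlapped those of controls, and of Slc3a1, which was low in those of mice 2, 3 and 6 (9.04, 25.5 and 14.1 CPM against 610.3 to 735.7 CPM in controls), are given for reference. RefSeq promoters (GRCm38.p6) were matched for 33 of 42 members, giving 42 promoters because some genes have several starts, with no entry used for Slc5a2, Slc5a12, Slc22a7, Slc7a12, Slc7a13, Slc6a18, Slc13a1, Slc23a1 and Slc47a1. The 300 bases from 250 before to 50 after each start were searched on both strands for the E-box CACGTG, bound by TFE3 and related factors, and for the HNF4 motifs CAAAGTCCA and CAAAGGTCA. The E-box was in 6 of these 42 promoters, 1 each of Amn, Slc13a3, Slc16a12, Slc26a1, Slc5a1 and Slc9a3, and in 7.15% of all 32851 promoters. The motif CAAAGTCCA was in that of Slc3a1 alone among the members and in 0.475% of all, and CAAAGGTCA was in 0 of 42 and in 0.478% of all. Capitals mark the E-box, 240 bases before the start of Slc16a12 at chr19:34747329-34747578 (- strand), and the HNF4 motif, 39 bases before the start of Slc3a1 at chr17:85028097-85028346 (+ strand). A match describes the letters and is not a binding site. Members with the E-box differed in level in the 6 kidney tumor libraries whose distal markers had a median under 1% of control. Their medians there were 102% of control for Slc16a12, 18.7% for Amn and 5.86% for Slc26a1. For Slc5a1, Slc9a3 and Slc13a3 they were 1.89%, 0.87% and 0.649%. A link between these motifs and the levels was not tested.
Slc16a12: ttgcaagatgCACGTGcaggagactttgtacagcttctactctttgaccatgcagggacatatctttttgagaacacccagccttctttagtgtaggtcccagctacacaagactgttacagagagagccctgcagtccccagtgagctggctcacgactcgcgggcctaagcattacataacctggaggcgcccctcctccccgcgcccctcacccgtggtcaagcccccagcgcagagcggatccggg
Slc3a1: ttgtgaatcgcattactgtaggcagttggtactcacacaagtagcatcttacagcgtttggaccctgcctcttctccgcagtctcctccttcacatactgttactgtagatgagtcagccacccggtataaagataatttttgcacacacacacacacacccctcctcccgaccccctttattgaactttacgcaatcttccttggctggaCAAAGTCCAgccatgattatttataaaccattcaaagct

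Genes outside the 42 members were counted for the same comparison of kidney tumor with control kidney. Of 22 other proximal tubule transporters, 3 rose and 4 fell. Slc6a13, a GABA and taurine transporter, rose by 4.06 on the log2 scale (SE 0.60, adjusted p = 0.00302), from 96.9 to 114.1 CPM in controls to 520.6 to 2875 CPM in tumors, and was at 104.1, 227.8, 201.1 and 87.5 CPM in the non-transformed kidneys of mice 1, 3, 4 and 5. Slc36a2 and Abcc2 also rose, and Slc2a9, Slc22a5, Slc16a10 and Abcg2 fell by 0.76 to 1.92. Of 9 brush border enzymes, 0 were called (2 at an unadjusted p under 0.05). Of 8 genes for scaffold proteins and endocytic machinery, 1 fell, the megalin chaperone Lrpap1, by 1.45 (SE 0.41, adjusted p = 0.0381). The tubule transcription factor Hnf4a was below every control in all 6 tumors without being called (difference -2.03, SE 0.77, adjusted p = 0.0925). In the same comparison 2 of 4 leukocyte and 2 of 4 fibroblast markers rose, and 0 of 4 podocyte markers were called although all 4 were below every control. The part of these cell types in the members' levels was not tested.

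Compared to non-transformed kidney, which shares the fusion genotype and, for mice 1, 3, 4 and 5, the animal, the same 2 members fell. Dab2 differed by -1.07 on the log2 scale (SE 0.28, adjusted p = 0.0272) and Slc7a7 by -1.51 (SE 0.41, adjusted p = 0.0333), with 5.02% of 21930 genes tested called lower. The kidney tumor group is shared with the comparison above. All 42 differences were negative, with a median of -2.09 against -0.02 over all genes, and 20 of 42 members did not overlap, against 6.47% of all genes. Lrp2 differed by -1.83 (SE 0.67, adjusted p = 0.0851), Cubn by -2.23 (SE 1.04, adjusted p = 0.160), Slc4a4 by -1.83 (SE 0.68, adjusted p = 0.0892), Slc27a2 by -1.72 (SE 0.97, adjusted p = 0.235) and Slc34a1 by -2.10 (SE 1.20, adjusted p = 0.241). Within mice, the median member in kidney tumor was at 17.0% of the mouse's own non-transformed kidney in mouse 1, 2.60% in mouse 3, 59.0% in mouse 4 and 63.3% in mouse 5. In mice 1 and 3 all 42 members were lower in the tumor, in mouse 4 it was 41 and in mouse 5 it was 33. Slc16a12 was at 57.0%, 93.3%, 131% and 71.2% of the own kidney in these mice, and Slc5a2 at 11.9%, 0.503%, 58.5% and 34.6%. With the mouse as a block, 1 member was called (Slc2a2) beside 4.23% of all genes, and with sex as a covariate 1 (Dab2) beside 14.96%. DESeq2 called 10 members, which is 23.8%, and 17.4% of all genes. The count was 0 without mouse 3, beside 5.59% of all genes. Without mouse 5 it was 4 (Amn, Aqp1, Slc22a18 and Slc23a1), beside 16.98%, so that neither Dab2 nor Slc7a7 was called. Without mouse 4 it was 3 (Slc6a19, Slc7a7 and Slc7a8), beside 12.6%. It was 1 without mouse 1 (Dab2, beside 6.40%), 2 (Slc7a7, beside 12.7%) or 6 (Dab2, beside 12.8%).

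Non-transformed kidneys of fusion mice had levels near those of control kidneys. The summed level of the members was 25661.5 ± 1606 CPM (n = 4), and the median difference over the members was 0.09 on the log2 scale, against 0.03 over all genes. In edgeR's test 0 of 42 members were called, while 0.00952% of 21019 genes were called higher and 0.00% lower. At an unadjusted p under 0.05 there were 4 members (Slc27a2, Slc7a13, Slco1a1 and Slc22a30), beside 11.7% of all genes, and DESeq2 called 1, Slc7a13, beside 1.79% of all genes. In these kidneys all 4 were higher in the 2 males, fusion mice 1 and 5, than in every female, and all controls were female. In female fusion mice 3 and 4, Slc7a13 was at 2.74 and 1.86 CPM, against 2.26 to 4.21 CPM in controls. Slc27a2 was above every control in all 4 kidneys, at 2342 to 3229 CPM against 1890 to 2325 CPM (difference 0.39, SE 0.15, adjusted p = 0.382), and Slc7a9, the catalytic subunit of the cystine transporter, was below every control at 84.6 to 151.3 CPM against 151.8 to 171.5 CPM. Such complete separation was seen for 4.48% of all genes in the higher and 7.0% in the lower direction. The difference was 0.16 (SE 0.16, adjusted p = 0.699) for Lrp2, 0.14 (SE 0.15, adjusted p = 0.737) for Cubn, 0.15 (SE 0.18, adjusted p = 0.771) for Slc4a4 and 0.07 (SE 0.22, adjusted p = 0.931) for Slc34a1. The last 2 turned to -0.032 and -0.24 with sex as a covariate and to -0.0084 and -0.11 without fusion mouse 1.

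Within these 7 kidneys, members differed by sex. The 2 male kidneys were above all 5 female kidneys for 9 members and below them for 9, against 12.2% and 14.4% of 19692 genes. Slco1a1, an organic anion transporter, was at 11.3 and 211.9 CPM in the non-transformed kidneys of male mice 1 and 5 and at 0.221 to 0.367 CPM in females. Slc7a13, an acidic amino acid and cystine transporter of S3, was at 123.5 and 890.1 CPM in males and 1.86 to 4.21 CPM in females. Slc22a30 was at 117.2 and 308.7 CPM against 16.02 to 24.9 CPM. The other male-higher members were Slc13a1, Slc16a12, Slc22a12, Slc22a6, Slc27a2 and Slc47a1. Among female-higher members, Slc22a7 (an organic anion transporter) was at 74.8 to 234.2 CPM in females and at 19.2 and 47.0 CPM in males, and Slc22a19 was at 150.8 to 367.9 CPM against 29.2 and 90.1 CPM. Slc7a12 was at 417.5 to 1120 CPM in females and 301.9 and 265.4 CPM in males. The others were Aqp1, Slc22a13, Slc23a1, Slc3a1, Slc5a1 and Slc6a18. Both males carried the fusion, as did female mice 3 and 4. Among these fusion mice alone, Slco1a1 was at 0.316 and 0.353 CPM, Slc7a13 at 2.74 and 1.86 CPM and Slc22a7 at 234.2 and 132.1 CPM in the females. These members were chosen for lying outside all 5 females, which fixes this order too. With 2 males, no test was made. Slco1a1 and Slco1a6, Slc22a19 and Slc22a30, Slc7a12 and Slc7a13, and Slc6a20b and its paralog Slc6a20a are similar in sequence, and how shared reads were split between them is not given in the sources used here. Exons of Cubn, Dab2, Slc5a2, Slc34a1, Slc22a12, Slc7a7, Slc3a1, Slc6a20b, Slc27a2 and Slc26a1 overlap a gene on the opposite strand, and whether the counting used strand is not given there either.

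**Figure D4:**
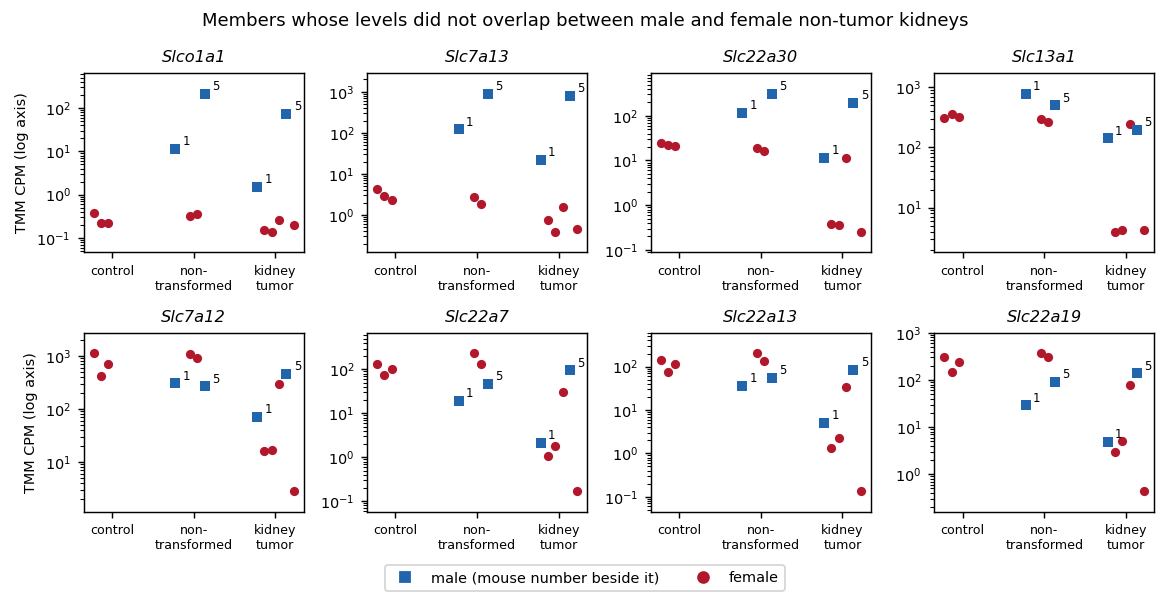
TMM-normalized CPM (log axis) of 8 members whose levels did not overlap between the 2 male and 5 female control and non-transformed kidneys, with the kidney tumors beside them. Each point is a mouse, squares are males with their number and circles are females. Slc7a13 is at 789.4 CPM in the tumor of male mouse 5 and at 0.390 to 1.58 CPM in the 4 female tumors.

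Retro-orbital tumors of 4 fusion mice had lower levels of the members than the kidney tumors of the 6. The summed level was 448.3, 407.5, 2118 and 406.9 CPM in mice 2, 3, 5 and 6, against 1267 to 16791 CPM in kidney tumors. Mouse 5 was the highest for 40 of 42 members, and its 10 distal markers were also highest, at a median of 5.67% of control against 0.122 to 0.488% in the other 3 mice. In edgeR's test 5 of 42 members fell, against 9.45% of 22136 genes called lower. Slc16a12 fell by 3.66 on the log2 scale (SE 0.28, adjusted p = 0.000801), from 87.3 ± 21.8 CPM (n = 6) to 6.996 ± 2.34 CPM (n = 4). Amn fell by 4.12 (SE 0.91, adjusted p = 0.0135), Slc2a2 by 4.41 (SE 1.14, adjusted p = 0.0246), Slc22a18 by 3.72 (SE 1.02, adjusted p = 0.0316) and Slc7a7 by 1.40 (SE 0.40, adjusted p = 0.0386). Slc16a12, Amn and Slc7a13 did not overlap between the groups, against 7.82% of all genes. The median over the members was -3.74, against -0.09 over all genes. It was -5.51 without mouse 5 and -2.63 with the mouse as a block.

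The count of members called in retro-orbital tumors varied with the animals, the model and the tool. It was 21 without mouse 5 (15.3% of all genes were called), 3 without mouse 2 (8.06%), 1 (Slc16a12) without mouse 3 (7.24%) and 2 without mouse 6 (7.92%). It was 26 with the mouse as a block, 22 with sex as a covariate, 24 in a joint fit of the adult groups and 36 by DESeq2, where 12.2%, 18.9%, 18.3% and 17.6% of all genes were called. Slc16a12 was called in all 13 alternatives, with differences of -3.85 to -3.45. The call of Slc7a7 ended with the mouse as a block, with no filter on low counts and without mouse 3, 5 or 6. Aqp1 and Dab2, which endothelial cells and macrophages also express, were at 24.7 to 52.5 CPM and 136.3 to 265.5 CPM, beside 221.2 to 470.3 CPM of the endothelial marker Cdh5 against 63.2 to 107.5 CPM in kidney tumors. Their part in these levels was not tested. Of the 22 other transporters, 6 fell, and 4 of 9 brush border enzymes fell.

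Brain tumors showed a similar range, with summed levels of 421.2, 816.8 and 968.4 CPM in mice 1, 2 and 4. In edgeR's test 6 of 42 members fell compared to kidney tumors, the same kidney tumors as above, against 4.20% of 23391 genes called lower. Slc16a12 fell by 4.00 (SE 0.29, adjusted p = 0.00113), to 5.28 ± 1.10 CPM (n = 3), Slc7a7 by 3.51 (SE 0.54, adjusted p = 0.0111), to 4.14 ± 0.780 CPM, and Dab2 by 2.40 (SE 0.40, adjusted p = 0.0141), to 66.5 ± 22.5 CPM. Slc2a2 fell by 4.49 (SE 0.95, adjusted p = 0.0266), the ascorbate transporter Slc23a1 by 5.50 (SE 1.33, adjusted p = 0.0388) and Slc22a18 by 5.19 (SE 1.31, adjusted p = 0.0424). All 42 differences were negative, with a median of -4.85 against 0.03 over all genes, and 15 of 42 did not overlap, against 9.0% of all genes.

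Lrp2 was at 240.6, 238.2 and 698.4 CPM in brain tumors, beside 64.8, 157.1, 687 and 97.1 CPM in retro-orbital tumors. The brain tumor of mouse 2 had the highest level of the 3 for 30 of 42 members and also the highest sum of 4 neuronal and glial markers, at 928.5 CPM against 32.4 CPM in mouse 1 and 241.6 CPM in mouse 4. The neuronal gene Snap25 was at 2.39, 297.5 and 14.96 CPM in mice 1, 2 and 4, while the astrocyte gene Gfap was at 0.180, 123.1 and 150.6 CPM, higher in mouse 4. Slc4a4, which astrocytes also express, was at 12.8, 258.3 and 42.8 CPM in these mice, an order that Gfap did not share. The part of neural tissue in these levels was not tested. With the mouse as a block, 0 members and 0 of 23391 genes were called, while a joint fit of the adult groups called 30 (71.4%, beside 25.1% of all genes) and DESeq2 36 (85.7%, beside 14.7%). The count was 1 without mouse 1, 2 without mouse 2 and 3 without mouse 4, beside 2.30%, 1.26% and 6.36% of all genes. With sex as a covariate it was 4, beside 6.28% of all genes, and the calls of Slc22a18 and Slc23a1 ended. Slc16a12 was called in 12 of 13 alternatives.

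Before the fetal comparison, several libraries stood apart from their labels. Control fetuses 2 and 3 and dysmorphic fetus 5 had 695.2, 687.6 and 509.8 CPM of the intestinal gene Fabp2, against 0.124 to 5.92 CPM in the other 5 fetuses, and 12 intestinal markers together had 3388, 4951 and 3088 CPM against 8.67 to 62.2 CPM. Pax8, a renal lineage factor, was at 37.3, 25.4 and 2.03 CPM in control fetuses 1 to 3 and at 1.61, 8.47, 3.72, 0.212 and 2.48 CPM in dysmorphic fetuses 1 to 5. The loop transporter Slc12a1 was at 580.9, 174 and 0.663 CPM in controls and at 2.78, 37.9, 3.30, 0.522 and 0.594 CPM in dysmorphic samples. Control fetus 3 lay within the range of the dysmorphic samples for both genes, and it had 115 CPM of the podocyte gene Podxl against 29.5 to 80.2 CPM in dysmorphic samples. All 5 dysmorphic samples also had higher levels of 4 of 4 skeletal muscle markers (called, 1.89 to 2.14 on the log2 scale) and 4 of 4 fibroblast markers without overlap (2 called). The intestinal list was chosen after these values were seen. In the titles, control fetuses 1 and 2 share a prefix with dysmorphic fetuses 1 to 3, and control fetus 3 shares another with dysmorphic fetuses 4 and 5. What the prefix marks is not given in the sources used here. Within the second prefix, control fetus 3 had 0.663 CPM of Slc12a1 against 0.522 and 0.594 CPM in dysmorphic fetuses 4 and 5, nearly equal low levels. Its Pax8 level lay between theirs.

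**Figure D5:**
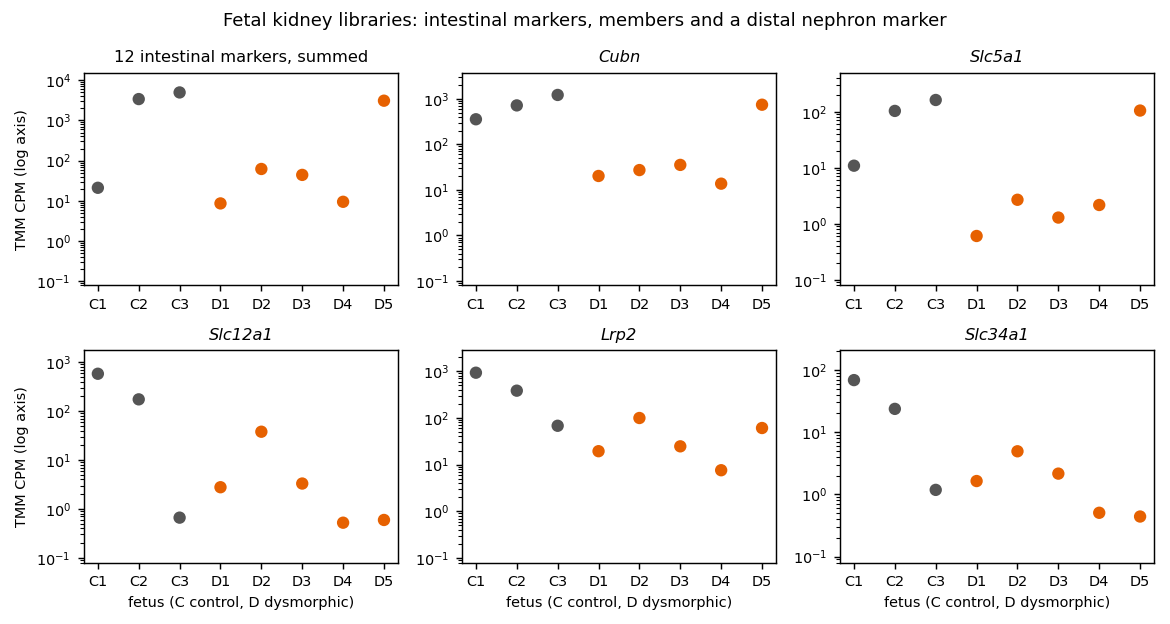
TMM-normalized CPM (log axis) in the 3 control (C) and 5 dysmorphic (D) fetal samples for 12 intestinal markers summed, the members Cubn, Slc5a1, Lrp2 and Slc34a1, and the loop transporter Slc12a1. Cubn and Slc5a1 are high in C2, C3 and D5, where the intestinal markers are high, whereas Lrp2 and Slc34a1 are highest in C1 and C2, where Slc12a1 is high.

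Several members followed these samples. Cubn, which the intestine also uses for vitamin B12 uptake, was at 356.5, 718.8 and 1220 CPM in control fetuses 1 to 3 and at 20.2, 27.3, 35.4, 13.7 and 744.3 CPM in dysmorphic fetuses 1 to 5. Slc5a1, the intestinal glucose carrier, was at 10.9, 103.3 and 161.8 CPM in controls and 0.608, 2.69, 1.29, 2.17 and 104.9 CPM in dysmorphic samples. Both were high where intestinal markers were high. Of the 42 members, 14 were above control fetus 1 in both control fetus 3 and dysmorphic fetus 5, namely Cubn, Amn, Dab2, Slc5a1, Slc34a3, Slc22a18, Slc7a7, Slc7a8, Slc7a9, Slc3a1, Slc6a19, Slc2a2, Slc9a3 and Slc26a1. In contrast, Lrp2 was at 927.9, 382.7 and 67.8 CPM in controls and 19.4, 99.5, 24.6, 7.58 and 60.7 CPM in dysmorphic samples, and Slc34a1 at 68.5, 23.6 and 1.18 CPM and 1.63, 4.92, 2.15, 0.505 and 0.439 CPM. Dab2, among the 14, was at 327.9 and 384.7 CPM in dysmorphic fetuses 1 and 4. It was at 297.9 and 298.5 CPM in control fetus 3 and dysmorphic fetus 5, so it did not follow the intestinal markers. Control fetus 1 and dysmorphic fetuses 1 to 3 were male by Y-linked transcripts.

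In edgeR's test of dysmorphic against control fetal kidney, 3 of the 41 members tested fell, against 0.269% of 22690 genes called lower. Slc5a8 fell by 4.13 on the log2 scale (SE 0.64, adjusted p = 0.0350), at 47.1, 14.2 and 19.4 CPM in controls and 0.558 to 3.48 CPM in dysmorphic samples. Slc47a1, which exports organic cations to the urine, fell by 2.45 (SE 0.43, adjusted p = 0.0364), and Slc16a12 by 1.48 (SE 0.30, adjusted p = 0.0461), at 15.9, 14.7 and 6.30 CPM against 3.36 to 5.80 CPM. These 3 did not overlap between the groups, against 4.58% of all genes. The difference was -3.43 (SE 0.95, adjusted p = 0.0963) for Lrp2, -2.22 (SE 1.35, adjusted p = 0.405) for Cubn, -2.07 (SE 1.45, adjusted p = 0.473) for Slc3a1, -0.20 (SE 0.13, adjusted p = 0.429) for Slc4a4 and 0.13 (SE 0.19, adjusted p = 0.751) for Dab2. The median over the members was -2.36, against -0.04 over all genes. It was -3.36 without dysmorphic fetus 5, -3.67 without it and control fetus 3, and -2.99 with the title prefix as a covariate.

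The calls in fetal kidney varied with single samples. The count was 12 of 41 without dysmorphic fetus 5, when 5.12% of all genes were called, and 0 without any 1 of the 3 controls or of dysmorphic fetuses 1, 3 and 4, when 0 genes were called at all. It was also 0, with 0 genes called, without dysmorphic fetus 5 and control fetus 3 (34 of 42 members and 20.7% of all genes at an unadjusted p under 0.05) or without those and control fetus 2 (32 members and 13.2% of all genes), when 1 control remained. Without dysmorphic fetus 2 it was 4, with Slc22a13, Slc47a1 and Slc5a8 lower and Aqp1 higher, beside 5.58% of all genes, and the call of Slc16a12 ended. That call also ended without dysmorphic fetus 5 and with no filter on low counts. With sex as a covariate Slc5a8 alone was called, beside 0.0220% of all genes, so that the calls of Slc47a1 and Slc16a12 ended. With the title prefix as a covariate, 2 members fell (Slc5a8 and Slc17a1) beside 1.803% of all genes called. Within the first prefix 0 of 42 members and 0 genes were called, and 35 members and 17.7% of all genes had an unadjusted p under 0.05. Within the second, with 1 control, 0 of 40 members and 0 genes were called, and 3 members and 6.60% of all genes had such a p. The members' median was -3.41 in the first and -1.29 in the second. Slc16a12, one of the 3 that fell, differed by -1.77 in the first and -0.54 in the second. DESeq2 called 17 members, of which 1 (Aqp1) rose, beside 7.62% of all genes.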

How the data were processed

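Raw counts per gene, deposited by the authors as tables of 53379 genes for adult and fetal samples, were used as they stand. Per the labels, the RNA was extracted from formalin-fixed tissue and sequenced as stranded total RNA. The submitters' processing notes name FastQC, MultiQC, Bowtie2, STAR 2.5.2a and GRCm38 (mm10), and the counter and the annotation release are not given in the sources used here. In the counts from 1 to 20, 79.04 to 84.33% were even, so counts were also tested halved.

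Counts of a mouse's libraries in a group were summed. Each comparison was fitted on its own groups with the edgeR 4.0.16 quasi-likelihood test (R 4.3.3, TMM factors, filterByExpr), with Benjamini-Hochberg adjustment over all genes tested and a threshold of 0.05. SE is the log2 difference divided by the root of F. Levels are CPM with TMM factors. Fold changes were given for members called and, where fewer than 5 were, the 5 highest by mean level in the 2 groups. The scripts were tested on simulated counts.

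The members and lists were chosen with earlier results of these data known, and the intestinal and kidney lineage lists after the values were seen. Alternatives were DESeq2 1.42.0, other factors, no filter, halved counts, sex as a covariate, a joint fit, the mouse as a block and leaving out each animal. The main tests held no term for the mouse, so tissues of the same mouse were paired only in the fit with the mouse as a block. Deviations of a mouse's kidney tumor and its other tissue had a correlation of -0.025 to 0.163 for non-transformed kidney. It was 0.234 to 0.317 for retro-orbital tumor and -0.065 to -0.057 for brain tumor. Gene positions are from GENCODE for GRCm38, and promoters from RefSeq. Some genes and motifs are not reported here.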

Additional observations from a re-analysis of the deposited data

Results flagged for a closer look

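Of 172 values tested (a member or the summed level in a group of 4 to 6 animals), 69 had 1 animal farther from the others than Dixon's 95% critical value. Chance alone gives about 1 in 20, the values of one sample are not independent, and no cause was tested.

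In the retro-orbital tumor group, mouse 5 stood apart at the high end for 35 values. Its summed level was 2118 CPM. The endocytic receptors Lrp2, Cubn and Amn were at 687, 184.6 and 1.45 CPM, and the sugar carriers Slc5a1, Slc5a2 and Slc2a2 at 7.69, 15.03 and 8.13 CPM. Slc34a1, Slc34a3, Slc13a1, Slc9a3 and Slc26a1 were at 91.7, 1.32, 23.7, 7.33 and 3.48 CPM. Slc5a8, Slc5a12, Slc13a3 and Slc23a1 were at 26.2, 34.8, 20.2 and 8.30 CPM. Slc22a6, Slc22a7, Slc22a8, Slc22a12, Slc22a13, Slc22a19 and Slc22a30 were at 12.6, 4.50, 19.0, 7.93, 4.94, 9.27 and 1.09 CPM, and Slc17a1, Slc17a3, Slco1a6 and Slc47a1 at 27.6, 18.2, 29.0 and 22.8 CPM. Slc7a8, Slc7a9, Slc7a12, Slc3a1, Slc6a18, Slc6a19 and Slc6a20b were at 12.7, 6.58, 24.1, 39.7, 14.7, 10.9 and 11.3 CPM, and Slc27a2 at 229 CPM. The 10 distal markers were also highest in this sample, at 5.67% of control.

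Dysmorphic fetus 5, whose intestinal markers summed to 3088 CPM, stood apart at the high end for 14 values, with a summed level of 1720 CPM (1719.5). Cubn and Amn were at 744 and 19.7 CPM, Slc5a1 and Slc2a2 at 104.9 and 17.4 CPM, and Slc34a3, Slc9a3, Slc23a1 and Slc26a1 at 5.93, 13.4, 11.8 and 4.48 CPM. Slc7a7, Slc7a8, Slc7a9, Slc3a1 and Slc6a19 were at 52.0, 38.3, 56.2, 123 and 50.1 CPM. Dysmorphic fetus 2 stood apart at the high end for Slc22a13, Slc22a19, Slc7a12 and Slc7a13, at 0.291, 1.78, 2.07 and 1.63 CPM.

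Among kidney tumors, mouse 5, a male, stood apart at the high end for 6 members, with Slc5a8, Slc22a7, Slc22a12, Slc22a30, Slc7a13 and Slco1a1 at 343, 96.7, 222, 192, 789 and 72.9 CPM. Mouse 4 did for 5, with Slc5a12, Slc34a3, Slc7a7, Slc7a8 and Slc6a19 at 409, 15.1, 108, 76.6 and 121.2 CPM. Among non-transformed kidneys, mouse 1 stood apart at the high end for Slc34a3, Slc7a7 and Slc4a4, at 23.3, 222 and 2467 CPM, and mouse 5 for Slc7a13 and Slco1a1, at 890.1 and 212 CPM.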

How the results depend on the processing

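Counts of members called depended on the test. DESeq2 called 6 in kidney tumor against control kidney, 10 against non-transformed kidney, 1 in non-transformed against control kidney, 36 in retro-orbital and 36 in brain tumor against kidney tumor, and 17 in fetal kidney. With sex as a covariate the counts were 1 and 1 in the first and second of these, 22 in retro-orbital tumor, 4 in brain tumor and 1 in fetal kidney, and with no filter on low counts 1 in the first. A joint fit of all adult groups called 24 in retro-orbital and 30 in brain tumor. With the mouse as a replicate block, which pairs tissues of the same mouse, the counts were 1 against non-transformed kidney, 26 in retro-orbital tumor and 0 in brain tumor. Leaving out 1 animal gave 0 to 6 in kidney tumor against control kidney, 0 to 4 against non-transformed kidney, 1 to 21 in retro-orbital tumor, 1 to 6 in brain tumor and 0 to 12 in fetal kidney. Leaving out dysmorphic fetus 5 with control fetus 3, or with control fetuses 2 and 3, gave 0 each, as did the fetuses of each title prefix on their own, and the prefix as a covariate gave 2. These were chosen after seeing the data. The causes of these shifts were not tested.

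The summed level of control kidney was 22752 CPM with no factor and 22778 CPM with each library on its own, and that of control fetal kidney was 2651.6 CPM with no factor, against 23396 and 2324 CPM. In non-transformed against control kidney, the log2 difference of Slc4a4 turned to -0.032 with sex as a covariate, and leaving out 1 animal gave -0.0084 (without fusion mouse 1) to 0.27. That of Slc34a1 turned to -0.24 with sex as a covariate, and leaving out 1 animal gave -0.11 (without fusion mouse 1), -0.09 (without control mouse 1) and up to 0.17. In fetal kidney, that of Slc4a4 was 0.054 within the second title prefix. None of these was called. For the members named with a fold change in each comparison, 440 values kept their direction and side of the threshold, 97 lost the call, 5 gained one and 6 turned direction. Depth of at least 80205573 counts per library left levels near 0.1 CPM resting on few counts.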

Other observations

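In the kidney tumor of male mouse 5, members that differed by sex in kidneys without tumor were compared with the same mouse's non-transformed kidney. Of the 9 members higher in female kidneys, 8 were higher in this tumor than in that kidney, with a median of 152% of its level (96.7 to 205.5%). Of the 9 members higher in males, 0 were above it, with a median of 64.3%, and the 24 members that overlapped between the sexes had a median of 50.1%. All but Aqp1 of the female-higher members are late-segment genes, and late members stood higher in this tumor than early ones. Among the late members, the 8 female-higher had a median of 133%, the 4 male-higher 71.0% and the 2 that overlapped 72.4%. The part of segment and of sex in these values was not tested. Slc22a7 was at 96.7 CPM in the tumor and 47.0 CPM in the kidney, and Slc7a12 at 453.6 and 265.4 CPM. In the tumor of male mouse 1, the medians were 23.2% for female-higher and 18.2% for male-higher members. In the tumors of female mice 4 and 3, they were 36.8% and 1.58% for female-higher and 71.4% and 4.75% for male-higher members. The non-transformed kidneys of these mice are among the samples that set the sex groups, so a direction in the ratio follows partly from that choice, and no test was made.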
